A study of Mus musculus with 4 samples.

Results

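The 36 genes described here make, store and release fatty acids. They were taken from a list of names that was chosen with earlier results of these data known. It holds 12 genes of fatty acid synthesis, elongation and desaturation, 5 transcriptional regulators of these genes, 8 genes of triglyceride esterification and its glycerol supply, 5 genes of the lipid droplet coat, and 6 genes of lipolysis and its regulators. The list covers 36 of the 20145 genes that could be named on the array. The mRNA of BAT was measured on 4 one-color Agilent arrays (1 for each mouse), with 2 Tg mice given the vehicle and 2 given AP. All 4 were male C57/BL6N mice of 8 weeks carrying the maP2::Fv2E-PERK transgene, in which a *Fabp4* promoter drives Fv2E-PERK in white and brown fat. Fv2E-PERK carries the kinase domain of PERK, which phosphorylates eIF2α, and is switched on by the ligand AP (AP20187). The *Fabp4* gene is also active in macrophages, and no array of mice without the transgene was analysed here. AP or the vehicle (ethanol, PEG-400 and Tween-20 in water) was given into the peritoneum, and BAT was collected 12 h later. The labels give the dose of AP as 1 ng/g, and the legend in the study gives a higher one.

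Brown adipocytes build fatty acids from cytosolic acetyl-CoA, esterify them to glycerol 3-phosphate, and keep the triglycerides in many small droplets under a coat of perilipins and CIDE proteins. Lipases on the droplet surface cut the triglycerides when β-adrenergic signals arrive, and the fatty acids feed heat production by UCP1. Genes of synthesis are known targets of the insulin-responsive factor SREBP-1c and the carbohydrate-responsive factor ChREBP. Phosphorylation of eIF2α by PERK starts the integrated stress response (ISR), which lowers general translation and raises a set of genes through ATF4.

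Values are log2 of the processed spot signal minus the log2 of the 75th percentile of the same array, so 0 is the signal at that percentile. Brightness differs between probes for other reasons than mRNA level, and no gene is compared in level with another. As a check of the treatment, *Trib3*, a target of the ISR, was 2.78 and 2.33 in vehicle mice 1 and 2 and 6.26 and 8.01 in AP mice 1 and 2. *Ddit3*, which encodes a transcription factor of the same response, was 2.18 and 1.86 with the vehicle and 3.03 and 4.22 with AP. Both genes were higher in both AP mice, and both were higher in AP mouse 2 than in AP mouse 1. All 10 listed brown adipocyte markers were measured, *Ucp1* among them. Of 8 white adipose markers, *Hoxc8*, *Hoxc9*, *Hoxc10* and *Tcf21* were not well above background in either group. The other 4 were measured, *Lep*, *Retn* and *Nnat* above background on all 4 arrays and *Agt* on 3. Between 46.4% and 49.0% of spots were well above background and 0 were saturated. The 4 arrays shared 1 slide and 1 scan, and where an array lay on the slide cannot be told apart from its treatment.

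Of the 36 genes, 35 were measured on all 4 arrays. The exception was *Fads2*, which encodes the delta-6 desaturase of polyunsaturated fatty acids. Its only probe was not well above background on any array, so it has no fold change. After adjustment over all 24988 probes compared (limma, Benjamini-Hochberg), 0 of the 35 genes passed the threshold of 0.05, and neither did any of the 12803 named genes measured (0%). The smallest adjusted p of any probe was 0.80 (limma). Without adjustment, 1514 probes were under 0.05 (limma). For 1 gene, 2 mice against 2 allow no two-sided exact permutation p under 0.333. The limma p values set a difference against the spread between these samples only, moderated over all probes compared. In bulk BAT, fewer cells of a type and less RNA per cell cannot be told apart.

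The mice of a group lay farther apart in the lipid genes than in the named genes as a whole. These counts and medians describe the genes, with no test. The median difference with AP over the 35 genes was -0.064 on the log2 scale, where the median over all named genes was 0.011. With each array centred on its median these were 0.028 and 0.10, so the lipid genes lay 0.075 below all named genes either way. The median distance between the 2 vehicle mice was 0.89 on the log2 scale for the lipid genes and 0.32 for all named genes. The median distance between the 2 AP mice was 0.48 and 0.27. The vehicle mice were at least 2-fold apart for 11 of the 35 genes, where 10.2% of all named genes were. The AP mice were at least 2-fold apart for 8 of the 35 genes, where 6.93% were. Vehicle mouse 1 was above vehicle mouse 2 for 28 of the 35 genes, where it was for 59.6% of all named genes, and AP mouse 2 above AP mouse 1 for 25, where it was for 48.8%.

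The highest value of a lipid gene was in vehicle mouse 1 for 22 of the 35 genes, in vehicle mouse 2 for 2, in AP mouse 1 for 4 and in AP mouse 2 for 7. Of all named genes, 28.3%, 23.8%, 26.3% and 21.5% had their highest value in these mice. The lowest value was in vehicle mouse 1 for 5 of the 35 genes, in vehicle mouse 2 for 17, in AP mouse 1 for 12 and in AP mouse 2 for 1, where 18.9%, 35.9%, 24.2% and 21.1% of all named genes had theirs. Within each group, vehicle mouse 1 and AP mouse 2 thus held more of the highest values. The group means were at least 2-fold apart for 3 of the 35 genes, *Acly*, *Scd2* and *Pck1*, where 4.69% of all named genes were.

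By role, the medians with AP were -0.36 for fatty acid synthesis, -0.44 for the transcriptional regulators, 0.14 for esterification and glycerol supply, 0.21 for the droplet coat, and -0.05 for lipolysis. The medians of synthesis and of the regulators were negative, and that of the droplet coat positive, under every scaling tried with all 4 mice. The authors' log2 values and centring on the array median move nearly all genes alike, to a median over all named genes of -0.15 and 0.10, and there the median of esterification was -0.025 and that of lipolysis 0.041, which is 0.13 above and 0.061 below all named genes. Both AP mice were above both vehicle mice for 5 of the 35 genes, *Pparg*, *Dgat2*, *Pck1*, *Plin1* and *Cidec*, which is a smaller share than the 20.1% of all named genes. Both AP mice were below both vehicle mice for 1 gene, *Lpin1*, where 17.3% of all named genes were. The split of 5 higher and 1 lower became 5 and 4 with quantile normalization and 3 and 5 with the authors' log2 values, where 11.7% of all named genes were higher and 29.7% lower. In the plot of differences, 10 of 11 synthesis genes and 3 of 5 regulators lay left of 0 and all 5 genes of the droplet coat right of it, and every interval but that of *Pck1* included 0.

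**Figure D1:**
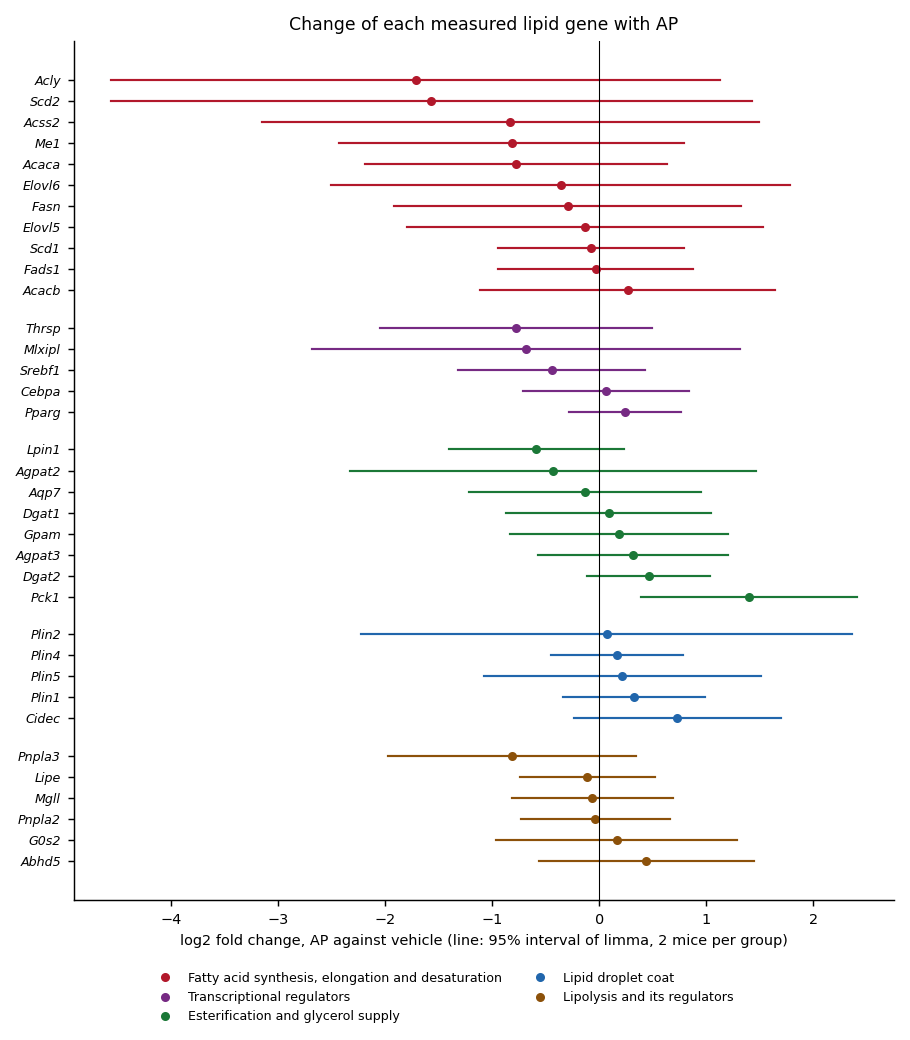
Log2 fold change of AP against vehicle for the 35 measured lipid genes, grouped by role, with points for the estimate and lines for the 95% interval from limma (2 mice per group). *Pck1*, at 1.40, is the only gene whose interval lies on one side of 0, and *Acly* at -1.72 and *Scd2* at -1.57 have wide intervals that include 0.

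The fatty acid synthesis genes were lower on average with AP, and they were also far apart between the mice of each group. Of 11 measured genes, 10 had a lower mean with AP, where 48.7% of all named genes did, and 0 had groups that did not overlap. In 10 of the 11 the highest value was in vehicle mouse 1, where 28.3% of all named genes had theirs. The lowest value was in AP mouse 1 for 6 genes and in vehicle mouse 2 for 5 genes, where 24.2% and 35.9% of all named genes had theirs. The median deviation of the 11 genes from their own mean was 0.99 in vehicle mouse 1, -0.33 in vehicle mouse 2, -0.61 in AP mouse 1 and 0.16 in AP mouse 2. Vehicle mouse 1 thus stood above the other 3 mice, and AP mouse 2 lay above vehicle mouse 2. Without vehicle mouse 1 the median difference with AP of these genes was -0.018, without vehicle mouse 2 it was -1.28, and without AP mouse 1 it was -0.057.

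*Acly* encodes ATP citrate lyase, which supplies cytosolic acetyl-CoA from citrate. Its log2 signal was 10.49 and 9.07 in the vehicle mice and 6.64 and 9.49 in the AP mice. AP mouse 1 was the lowest by far, and AP mouse 2 lay between the vehicle mice. The AP mice were 7.22-fold apart and the vehicle mice 2.68-fold. The difference with AP was -1.72 (standard error 1.07, adjusted p = 0.81 by limma), and a second probe gave -1.63 with the same order of mice. Leaving out AP mouse 1 changed the value to -0.29.

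*Scd2*, a stearoyl-CoA desaturase that puts the first double bond into saturated fatty acids, had the same order. Its log2 signal was 7.84 and 6.19 in the vehicle mice and 3.99 and 6.91 in the AP mice, with a difference of -1.57 (standard error 1.13). The AP mice were 7.61-fold apart, the widest gap between them among the 35 genes. *Acss2*, which makes acetyl-CoA from acetate, was 7.39, 5.76, 4.74 and 6.74 in the same order of mice. For all 3 genes the AP group held the lowest mouse and a second mouse that was above vehicle mouse 2.

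*Acaca*, which encodes the acetyl-CoA carboxylase that makes malonyl-CoA for synthesis, was 9.63 and 8.64 with the vehicle and 7.80 and 8.91 with AP. *Acacb*, which encodes the carboxylase at the mitochondrial outer membrane whose malonyl-CoA restrains fatty acid entry, was 7.67 and 6.26 with the vehicle and 7.42 and 7.04 with AP. *Acacb* was the 1 gene of the group with a higher mean with AP, at 0.27 (standard error 0.52), and *Acaca* had a lower one, at -0.78 (standard error 0.53). The other 2 probes of *Acaca* and the other probe of *Acacb* had the same sign as the probe shown.

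*Fasn* encodes fatty acid synthase, which assembles palmitate from malonyl-CoA. It was 7.46 and 5.78 in the vehicle mice and 6.08 and 6.56 in the AP mice. The vehicle mice were 3.22-fold apart and enclosed both AP mice, so its difference of -0.30 (standard error 0.61, adjusted p = 0.93 by limma) was smaller than the spread within the vehicle group. The 95% interval ran from -1.92 to 1.33. *Elovl6*, which elongates palmitate to stearate, and *Elovl5*, which elongates polyunsaturated fatty acids, were enclosed in the same way. *Elovl6* was 7.96 and 5.75 with the vehicle and 6.06 and 6.92 with AP, and *Elovl5* was 5.16 and 3.37 with the vehicle and 4.05 and 4.22 with AP. Of these 3 genes none had the lowest value in an AP mouse.

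*Me1*, the malic enzyme that supplies NADPH, was 8.32, 6.87, 6.29 and 7.25 in vehicle mice 1 and 2 and AP mice 1 and 2, and its 3 probes differed by -0.79 to -0.94 with AP. *Scd1*, the main stearoyl-CoA desaturase of adipocytes, had a narrower range. It was 10.24 and 9.51 with the vehicle and 9.95 and 9.65 with AP, a difference of -0.08 (standard error 0.33) that changed sign with quantile normalization. *Fads1*, the delta-5 desaturase, differed by -0.03 (standard error 0.34), which changed sign with normexp background correction, and it was the 1 gene of the group with its highest value outside vehicle mouse 1, in AP mouse 2.

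**Figure D2:**
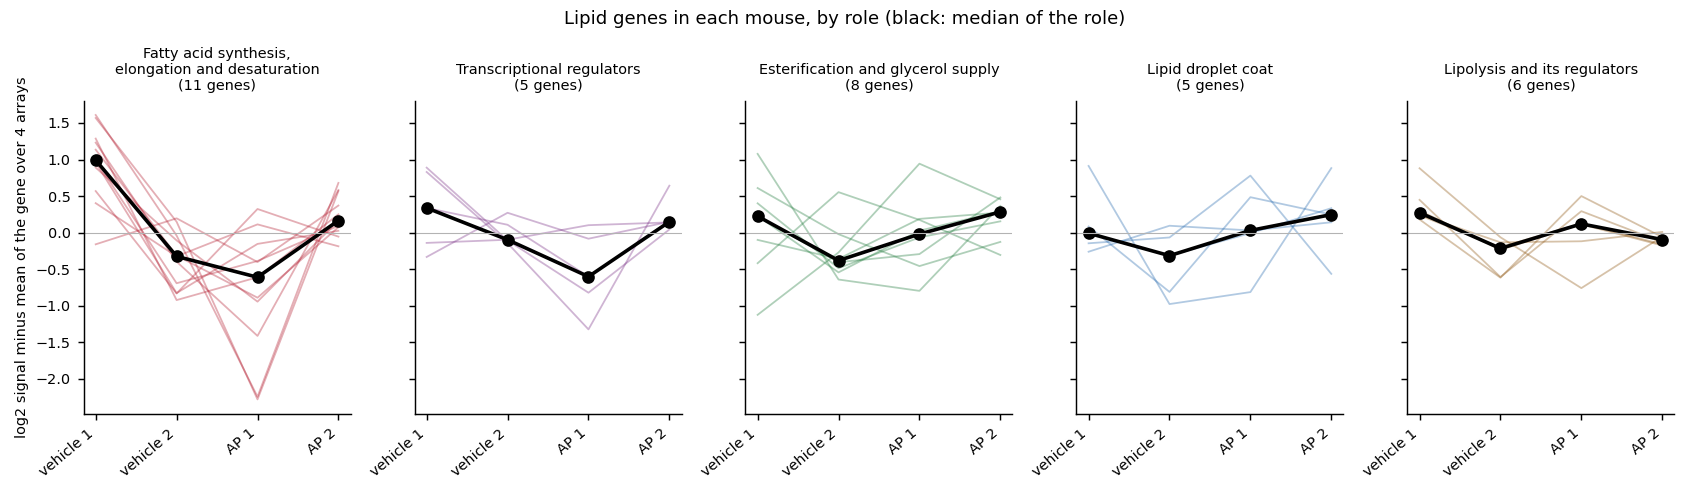
Log2 signal of each measured lipid gene in each mouse minus its mean over the 4 mice, in 5 panels by role; thin lines join the values of 1 gene and black points are the median of the role. The black points of fatty acid synthesis are at 0.99, -0.33, -0.61 and 0.16, and those of the regulators at 0.34, -0.10, -0.60 and 0.15, in vehicle mice 1 and 2 and AP mice 1 and 2.

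Of the 5 transcriptional regulators, *Srebf1*, *Mlxipl* and *Thrsp* shared the pattern of *Acly*. *Srebf1* encodes SREBP-1, which drives transcription of synthesis genes under insulin. Its log2 signal was 3.05 and 2.81 with the vehicle and 2.10 and 2.87 with AP, a difference of -0.44 (standard error 0.33). *Mlxipl* encodes ChREBP, the carbohydrate-responsive partner of SREBP-1 in this program, and was 6.99, 6.01, 4.83 and 6.80 in vehicle mice 1 and 2 and AP mice 1 and 2. *Thrsp*, also called Spot 14, encodes a small protein that promotes fatty acid synthesis, and was 10.31, 9.31, 8.59 and 9.46. In each of the 3, vehicle mouse 1 was the highest, AP mouse 1 the lowest, and AP mouse 2 above vehicle mouse 2, by little for *Srebf1* and *Thrsp*. *Srebf1* was lower without overlap with normexp, quantile normalization and the authors' log2 values, where 16.7%, 17.9% and 29.7% of all named genes were. *Thrsp* was so with quantile normalization and the authors' log2 values. Vehicle mouse 1 was the highest and AP mouse 1 the lowest in 5 of the 11 synthesis genes too, and in 11 of the 35 lipid genes in all, where 10.4% of all named genes had that order.

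*Pparg* and *Cebpa*, which encode the transcription factors that establish and hold the adipocyte state, did not share it. *Pparg* was 6.77 and 6.82 with the vehicle and 7.01 and 7.05 with AP, so the groups did not overlap and the mice within a group were at most 1.03-fold apart. Its difference was 0.24 (standard error 0.20, adjusted p = 0.83 by limma), or 1.18-fold. With the authors' log2 values the groups of *Pparg* overlapped, and its difference ran from 0.075 to 0.33 over the alternatives that keep all mice. *Cebpa* was 4.97 and 5.57 with the vehicle and 5.22 and 5.45 with AP, with both AP mice between the vehicle mice. Without AP mouse 1 the median of the 5 regulators was 0.18.

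Upstream sequences are shown for 3 genes that had their highest value in vehicle mouse 1 and for *Pck1*, the gene with the largest positive difference among the members, so that the letters of these promoters can be read beside the values. Each holds the 250 bases before the annotated start of the gene, from RefSeq, build GRCm38.p6, written 5′ to 3′ along the gene. Capitals mark the CCAAT box (CCAAT, read as ATTGG on the other strand) in *Fasn* and *Thrsp*, and the core of the cAMP response element (TGACGT, read as ACGTCA on the other strand) in *Pck1*. The window of *Acly* holds none of the motifs searched.
Acly chr11:100528001-100528250 (- strand): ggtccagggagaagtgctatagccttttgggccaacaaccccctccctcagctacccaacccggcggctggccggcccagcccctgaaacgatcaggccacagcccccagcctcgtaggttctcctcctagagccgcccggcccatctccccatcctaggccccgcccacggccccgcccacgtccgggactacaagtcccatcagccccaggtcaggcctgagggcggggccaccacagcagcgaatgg
Fasn chr11:120824548-120824797 (- strand): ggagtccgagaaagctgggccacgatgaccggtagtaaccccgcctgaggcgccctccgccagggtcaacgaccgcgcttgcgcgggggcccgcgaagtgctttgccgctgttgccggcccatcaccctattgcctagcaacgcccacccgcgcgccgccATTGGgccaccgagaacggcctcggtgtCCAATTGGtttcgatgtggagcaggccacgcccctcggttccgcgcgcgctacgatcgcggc
Thrsp chr7:97417551-97417800 (- strand): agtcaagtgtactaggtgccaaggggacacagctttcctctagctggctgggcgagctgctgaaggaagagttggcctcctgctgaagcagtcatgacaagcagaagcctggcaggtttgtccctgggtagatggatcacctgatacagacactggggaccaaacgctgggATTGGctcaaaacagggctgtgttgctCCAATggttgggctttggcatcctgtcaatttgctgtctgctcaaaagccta
Pck1 chr2:173152823-173153072 (+ strand): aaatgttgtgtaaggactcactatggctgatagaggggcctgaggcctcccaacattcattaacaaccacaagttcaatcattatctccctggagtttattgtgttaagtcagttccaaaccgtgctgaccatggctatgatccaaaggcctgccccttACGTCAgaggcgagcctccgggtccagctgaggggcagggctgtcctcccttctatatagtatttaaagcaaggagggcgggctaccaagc

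A promoter window could be matched for 31 of the 36 genes, with 43 windows in all because some genes have several starts. Every motif was searched on both strands of the 250 upstream bases. The CCAAT box was in 16 of the 43 windows (37.2%), where 33.9% of all 32841 windows held it. It was in 5 of 10 windows of the synthesis genes, 6 of 10 of the regulators, 1 of 8 of esterification, 3 of 7 of the droplet coat and 1 of 8 of lipolysis. Counted back from -1, the base before the start, it begins at -90, -62 and -59 in *Fasn*, the last 2 overlapping on opposite strands, and at -79 and -52 in *Thrsp*. The cAMP response element core was in 3 windows, those of *Gpam*, *Pck1* and *Pnpla3*, and in 6.47% of all windows; in *Pck1* it covers bases -91 to -86. The E-box CACGTG was in 4 windows, those of *Elovl5*, *Mlxipl*, *Lipe* and *Mgll*, and in 6.02% of all windows. The sterol response element letters TCACNCCAC were in 1 window, of *Mlxipl*, and in 1.05% of all windows, and its longer form of 10 bases was in 0 of the 43 and in 0.0731% of all. The C/EBP-ATF letters TGATGNAAT were in 0 of the 43 windows and in 0.816% of all windows. A match is a run of letters and not a measured binding site, and no match says only that these letters are not in this window.

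The largest positive difference among the lipid genes was that of *Pck1*, which encodes the cytosolic phosphoenolpyruvate carboxykinase that provides glycerol 3-phosphate for esterification in fat. Its log2 signal was 7.12 and 7.97 in the vehicle mice and 9.19 and 8.70 in the AP mice. Both AP mice were above both vehicle mice, and AP mouse 1, the lowest mouse for 6 of the synthesis genes, was the highest. The difference was 1.40 (standard error 0.38), or 2.64-fold, with a 95% interval from 0.39 to 2.41 and an adjusted p of 0.80 by limma. Its unadjusted limma p was 0.017, and it was the 1 lipid gene under 0.05 before adjustment, where 3.77% of all named genes were so with a higher value and 2.26% with a lower value. By the methods' t-test, *Pck1* was not under 0.05 and *Pparg* was the 1 lipid gene that was. Leaving out 1 mouse at a time gave differences of 0.97 to 1.83, and the unadjusted limma p was 0.053 without vehicle mouse 1 and 0.073 without AP mouse 1.

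*Lpin1* encodes lipin 1, the phosphatidate phosphatase that makes diacylglycerol and also a coregulator of transcription. It was 5.78 and 5.14 in the vehicle mice and 4.71 and 5.04 in the AP mice, a difference of -0.59 (standard error 0.31, adjusted p = 0.80 by limma). The gap between the nearest mice of the groups was narrow, and a second, dimmer probe, at -1.31 and -2.54 with the vehicle and -2.17 and -3.93 with AP, gave -1.12 with groups that overlapped. Without vehicle mouse 1 the difference was -0.27, and without vehicle mouse 2 it was -0.90.

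*Dgat2* and *Dgat1* encode the acyltransferases that finish triglycerides. *Dgat2* was 9.64 and 9.38 with the vehicle and 9.93 and 10.01 with AP, a difference of 0.46 (standard error 0.22, adjusted p = 0.80 by limma), or 1.38-fold. *Dgat1* was 4.98 and 4.10 with the vehicle and 4.52 and 4.74 with AP, with both AP mice inside the range of the vehicle mice. *Agpat2* and *Agpat3* encode acyltransferases that add the second fatty acid. *Agpat2* was 7.94, 6.22, 6.07 and 7.23 in vehicle mice 1 and 2 and AP mice 1 and 2, in the order seen for *Acly*. *Agpat3* differed by 0.32 (standard error 0.34) and *Gpam*, the mitochondrial glycerol 3-phosphate acyltransferase, by 0.19 (standard error 0.38). *Aqp7*, the aquaglyceroporin through which glycerol leaves adipocytes, differed by -0.13 (standard error 0.41). The groups overlapped for all 5 of *Dgat1*, *Agpat2*, *Agpat3*, *Gpam* and *Aqp7*.

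All 5 listed genes of the lipid droplet coat had a higher mean with AP, where 51.3% of all named genes did, and all 5 intervals included 0. *Plin2* had a lower mean with normexp and with the authors' log2 values. Other perilipins and CIDE proteins of the pathway did not share a sign. *Plin3* and *Cidea*, named after their values were seen, differed by -0.23 and 0.19, and *Cideb* by -0.74. *Cidec* encodes the protein, also called FSP27, that lets droplets fuse and grow. It was 8.30 and 7.41 in the vehicle mice and 8.71 and 8.47 in the AP mice, a difference of 0.73 (standard error 0.37, adjusted p = 0.80 by limma), or 1.66-fold. Both AP mice were above both vehicle mice, AP mouse 2 by little, and a second probe gave 0.96. Without vehicle mouse 2 the difference was 0.28, and without vehicle mouse 1 it was 1.18.

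*Plin1*, the perilipin that guards the droplet of adipocytes from lipases, was 7.40 and 7.09 with the vehicle and 7.40 and 7.74 with AP. Vehicle mouse 1 and AP mouse 1 were nearly level, so the groups touched, and with the authors' log2 values they overlapped. *Plin2*, the perilipin found on droplets of most cell types, paired the mice in another way. It was 9.12 and 7.23 with the vehicle and 7.40 and 9.09 with AP, so vehicle mouse 1 and AP mouse 2 stood at least 3.24-fold above the others and the difference with AP was 0.07 (standard error 0.86). *Plin5*, the perilipin that tethers droplets to mitochondria, was 6.80 and 6.88 with the vehicle and 7.73 and 6.39 with AP, where the AP mice were 2.54-fold apart and enclosed the vehicle mice. *Plin4* differed by 0.17 (standard error 0.23). Without vehicle mouse 1 the median of the droplet coat was 0.48, and without AP mouse 1 it was 0.50.

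The groups overlapped for all 6 genes of lipolysis, where 20.1% of all named genes were higher and 17.3% lower without overlap. *Pnpla3* was lower without overlap with normexp, quantile normalization, the authors' log2 values and the mean of its probes, and *Lipe* with normexp and the authors' log2 values. *Pnpla2* encodes adipose triglyceride lipase (ATGL), which makes the first cut. It was 9.38 and 8.95 in the vehicle mice and 9.27 and 8.99 in the AP mice, a difference of -0.04 (standard error 0.26, 95% interval -0.73 to 0.66), with both AP mice inside the range of the vehicle mice. *Lipe*, the hormone-sensitive lipase that acts on diacylglycerol, differed by -0.11 (standard error 0.24), and *Mgll*, the lipase that frees the last fatty acid, by -0.06 (standard error 0.28). The 3 measured probes of *Mgll* did not share a sign. The 95% interval was -0.74 to 0.52 for *Lipe* and -0.81 to 0.68 for *Mgll*.

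*Abhd5* and *G0s2* encode an activator and an inhibitor of ATGL. *Abhd5* was 3.37 and 2.57 with the vehicle and 3.69 and 3.13 with AP, a difference of 0.44 (standard error 0.38), and its 3 probes were all higher on average with AP. *G0s2* was 6.93 and 5.87 with the vehicle and 6.77 and 6.35 with AP, a difference of 0.16 (standard error 0.43), with both AP mice between the vehicle mice. *Pnpla3*, a lipid droplet protein related to ATGL and known as a target of SREBP-1c, was the member of this group that resembled the synthesis genes. It was 4.46, 3.52, 2.82 and 3.53 in vehicle mice 1 and 2 and AP mice 1 and 2, a difference of -0.82 (standard error 0.44, adjusted p = 0.80 by limma). AP mouse 2 and vehicle mouse 2 were nearly level, which was the whole overlap of the groups, and a second, dimmer probe, at 2.58, 1.11, 0.27 and 0.90, had no overlap and a difference of -1.26.

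**Figure D3:**
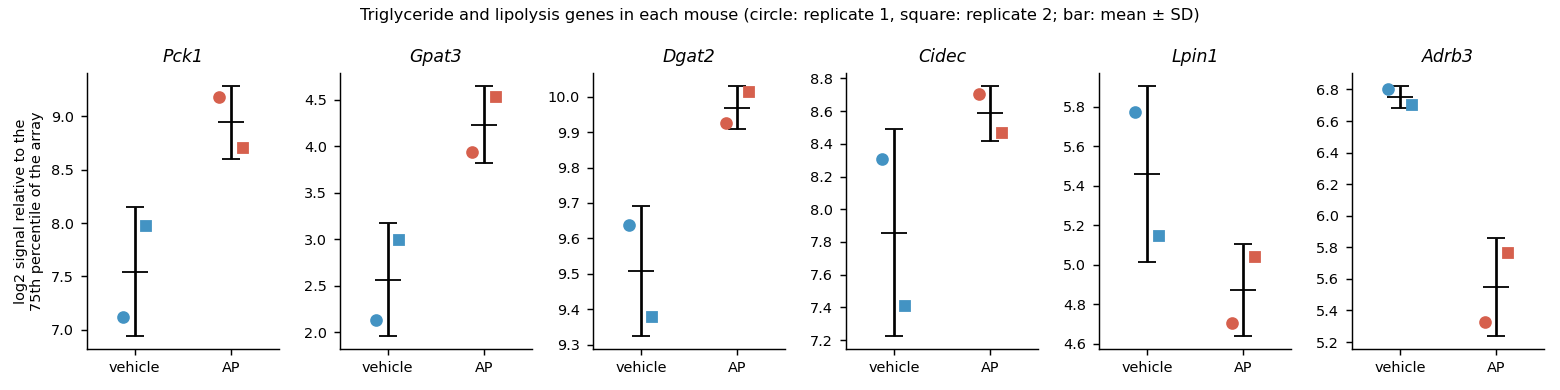
Log2 signal in each mouse, scaled to the 75th percentile of its array, for 4 members, *Pck1*, *Dgat2*, *Cidec* and *Lpin1*, and 2 other genes of the pathway, *Gpat3* and *Adrb3*; circles are replicate 1, squares replicate 2, bars the mean ± SD of 2 mice. Each panel has its own axis. All 6 were picked from genes whose groups do not overlap, as 37.4% of all named genes do not. The AP mice therefore lie on one side of the vehicle mice in every panel. The widest margins between means are those of *Gpat3* at 1.67 and *Pck1* at 1.40.

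Of 55 other genes of the same pathway, 51 were measured and 0 passed the adjusted threshold (limma). Both AP mice were above both vehicle mice for 9 of the 51 genes and below them for 7, beside the 20.1% and 17.3% of all named genes, and the median difference was 0.14. The 6 with the largest differences among these 16 were *Gpat3*, *Adrb3*, *Hacd1*, *Ces1f*, *Cideb* and *Tecr*. *Gpat3*, a glycerol 3-phosphate acyltransferase of the endoplasmic reticulum that starts triglyceride synthesis in fat, was 2.13 and 2.99 with the vehicle and 3.94 and 4.53 with AP. Its difference of 1.67 (standard error 0.40, adjusted p = 0.80 by limma), or 3.18-fold, was 1.24 to 2.10 with a mouse left out. *Adrb3*, the β3-adrenergic receptor through which noradrenaline starts lipolysis in fat, was 6.80 and 6.70 with the vehicle and 5.33 and 5.77 with AP. Its difference was -1.20 (standard error 0.25, adjusted p = 0.80 by limma), or 2.31-fold lower, and -1.42 to -0.99 with a mouse left out.

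*Gpat3* and *Adrb3* had unadjusted limma p values of 0.010 and 0.0059. *Pde3b*, the phosphodiesterase through which insulin restrains lipolysis, was named after its values were seen as the third of 51 genes under 0.05 before adjustment, beside the 3.77% higher and 2.26% lower of all named genes. Its difference was 0.63 (standard error 0.22). *Hacd1* and *Tecr*, which act in fatty acid elongation, differed by 0.86 and -0.63. *Ces1f*, a carboxylesterase, differed by 0.84 and *Cideb*, a CIDE protein best known from liver, by -0.74. *Adrb3* was thus lower in both AP mice, while *Pnpla2*, *Lipe* and *Mgll* overlapped between the groups. *Elovl2*, *Elovl7*, *Scd4* and *Gpat2* did not reach the background limit in any group.

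Among genes named after their values were seen, *Elovl3*, an elongase of brown fat, and *Acsl5*, an acyl-CoA synthetase, had the pattern of the synthesis genes in the vehicle group at a larger size. *Elovl3* was 6.08 and -1.07 in vehicle mice 1 and 2 and 3.52 and 5.76 in AP mice 1 and 2, so the vehicle mice were 142-fold apart. *Acsl5* was 6.24 and 2.83 in the vehicle mice and 3.41 and 4.93 in the AP mice. Vehicle mouse 1 and AP mouse 2 were the highest for both, as they were for *Acly*, *Acss2*, *Fasn*, *Elovl6* and *Plin2*.

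Markers of other cell types also differed between the mice of a group. The summed linear signal of 12 skeletal muscle markers, in units of the 75th percentile of each array, was 85.5 in vehicle mouse 1, 970 in vehicle mouse 2, 613.5 in AP mouse 1 and 349.7 in AP mouse 2. All 12 were lowest in vehicle mouse 1 and highest in vehicle mouse 2, opposite to the 10 of 11 synthesis genes that were highest in vehicle mouse 1. The sum of the 7 measured lymphocyte and antigen presentation markers of 12 listed was 99.2 in vehicle mouse 2 and 29.5 to 35.9 in the others, with *Cd3g*, *Cd79a* and *Ms4a1* not well above background in either group. The sum of 7 measured macrophage markers of 8 was 35.4 and 47.1 with the vehicle and 27.9 and 27.5 with AP. Both AP mice were below both vehicle mice in this sum and in *Itgam*, which was 4.21 and 3.82 with the vehicle and 2.85 and 3.42 with AP. In the other 6 of the 7 markers the groups overlapped, vehicle mouse 2 was the highest, and AP mouse 1 was above vehicle mouse 1. The median deviation of the 7 markers was -0.24, 0.63, 0.0003 and -0.40 in vehicle mice 1 and 2 and AP mice 1 and 2. The sum of the 4 measured white adipose markers was 47.1 and 54.5 with the vehicle and 33.5 and 37.6 with AP. Most of this sum is the signal of *Retn*, which was 5.50 and 5.40 with the vehicle and 4.98 and 5.16 with AP. *Lep* was also lower in both AP mice, while *Nnat* and *Agt* overlapped between the groups, with differences of -1.37 and 0.75. The sum of 5 endothelial markers was 33.4 to 38.8. Of 3 hepatocyte markers, *Alb* was not well above background, while *Apoa2* and *Serpina1a* were on all 4 arrays. *Apoa2* was 3.21 and 3.08 with the vehicle and 2.82 and 2.58 with AP. The part of these cells in the differences between the mice was not tested.

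Adipocyte markers also differed between the mice. The summed signal of 10 brown adipocyte markers was 6507 and 4023 with the vehicle and 5171 and 5970 with AP, and 7 of the 10 were lowest in vehicle mouse 2. That of 5 markers of adipocytes of any depot was 3712 and 2631 with the vehicle and 2998 and 3592 with AP. The median deviation of the brown adipocyte markers from their own mean was 0.23, -0.36, -0.02 and 0.15 in vehicle mice 1 and 2 and AP mice 1 and 2, and that of the markers of adipocytes of any depot 0.21, -0.27, -0.20 and 0.30, beside 0.99, -0.33, -0.61 and 0.16 for the synthesis genes. Vehicle mouse 2 was below 0 in all 3 sets, and vehicle mouse 1 and AP mouse 1 were farther from 0 in the synthesis genes. Not all brown adipocyte markers stayed as close as these medians. The vehicle mice were 142-fold apart for *Elovl3*, which is in this list of 10, and the AP mice 34.7-fold apart for *Dio2*.

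**Figure D4:**
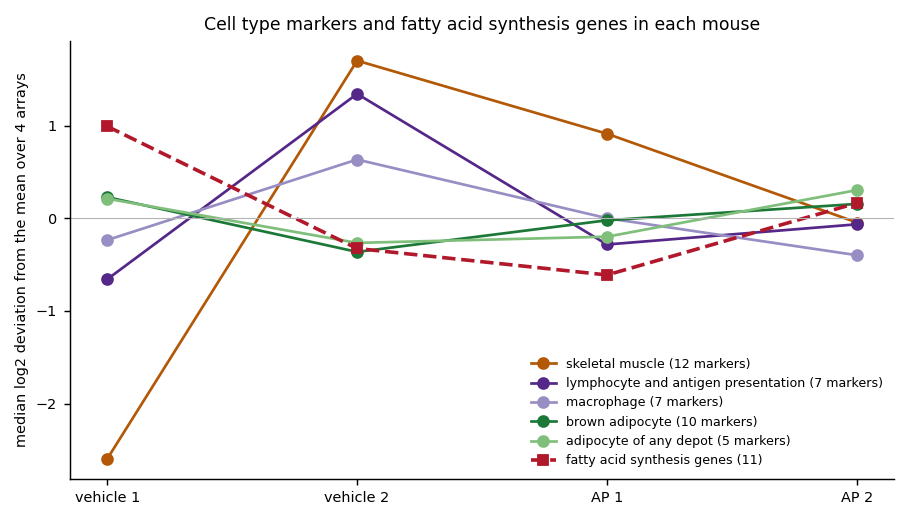
Median deviation, in log2 units, of 5 lists of cell type markers (solid lines, circles) and of the 11 fatty acid synthesis genes (dashed line, squares) from the mean over the 4 arrays, for each mouse. Skeletal muscle markers run from -2.60 in vehicle mouse 1 to 1.70 in vehicle mouse 2, while the median of the brown adipocyte markers stays between -0.36 and 0.23.

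With a mouse left out, the roles differed in how far they moved. The median of fatty acid synthesis ran from -1.28 to -0.018 and that of the regulators from -0.83 to 0.18, while the droplet coat stayed positive, from 0.15 to 0.50. Esterification ran from -0.10 to 0.52 and lipolysis from -0.32 to 0.19. The number of lipid genes whose groups did not overlap was 30 without vehicle mouse 2, 8 higher and 22 lower, and 22 without vehicle mouse 1, 19 higher and 3 lower. With 1 mouse against 2 most genes do not overlap: without vehicle mouse 2, 32.7% of all named genes were higher and 37.0% lower, and without vehicle mouse 1, 42.1% and 32.5%. The 6 genes whose groups did not overlap with all 4 mice cannot change direction when a mouse is left out.

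**Figure D5:**
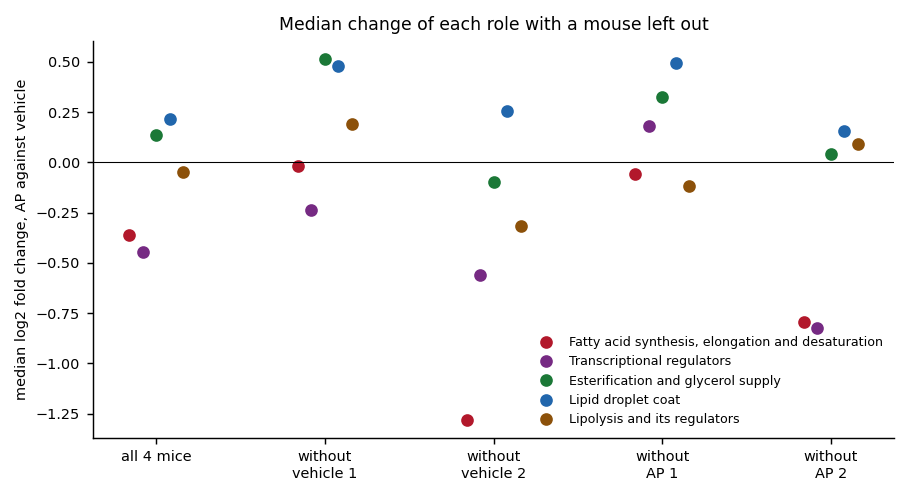
Median log2 fold change of AP against vehicle for each role with all 4 mice and with 1 mouse left out. Fatty acid synthesis (red) moves from -0.36 to -1.28 without vehicle mouse 2 and to -0.018 without vehicle mouse 1, and the droplet coat (blue) stays above 0.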

How the data were processed

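BAT mRNA of 4 mice was measured with SurePrint G3 Mouse arrays, 1 array per mouse. The authors read the scans with Feature Extraction 10.7.1.1, per the labels, and deposited the linear intensity of each spot, background-subtracted and not normalized between arrays. A second table, deposited by the authors, holds their own log2 values of these arrays, whose scaling and the value each probe is centred on are not given in the sources used here. Differences between arrays in it correlated with those of the scanner values at a Pearson's r of at least 0.9998 over 24883 probes, and the column medians were -0.284, -0.160, -0.438 and -0.293 in vehicle mice 1 and 2 and AP mice 1 and 2.

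Control and outlier spots were dropped, repeated spots of a probe were averaged, and the log2 processed signal was set relative to the 75th percentile of its array. Of 55681 probes, the 24988 with a signal well above background in the whole vehicle group or the whole AP group entered the comparison. A RefSeq table of GRCm38.p6 named 26582 probes of 20145 genes by accession; its coordinates were used only for promoter windows, since the array design names another build. The brightest kept probe stood for a gene, and 10 of the 35 measured lipid genes had several, of which 9 had all probes in 1 direction and *Mgll* did not. Groups were compared with limma 3.58.1 in R 4.3.3 (lmFit, eBayes, no trend, no block), with Benjamini-Hochberg adjustment over all kept probes. In simulated data of 24988 probes, the noise of each probe was drawn with its own standard deviation within the groups. There this test recovered 19 of 66 probes with a log2 change of 4. It recovered 0 of 67 each with a change of 2 or of 1, with 1 false call. Recovery with the noise set otherwise was not tested. Precision is limited by the number of arrays.

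The vehicle arrays correlated at 0.972 and the AP arrays at 0.981, so no array was a copy of another. The alternatives tried were normexp with offset 50 on the median spot signal held here, quantile normalization, centring on the array median, dropping the filter, requiring all 4 arrays above background, a variance trend, a replicate block, the authors' log2 values, the methods' t-test, the mean of a gene's probes, and leaving out a mouse at a time. A planned block for slide and scan could not be fitted with 1 slide and 1 scan. The members and the lists were chosen with earlier results of these data known. Values per mouse were to be given for members with groups that do not overlap and a difference of at least 0.5, and for *Srebf1*, *Fasn*, *Pparg* and *Pnpla2*; those of other members were added after they were seen. Of the other pathway genes, the 6 largest differences among those with groups that do not overlap are named.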

Additional observations from a re-analysis of the deposited data

How the results depend on the processing

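No lipid gene passed the adjusted threshold of 0.05 in limma or in any of 15 alternatives, and no probe in limma or in the 14 alternatives that test probes, where 1003 to 2610 probes were under 0.05 before adjustment. The replicate block, for numbers that the labels do not say pair the mice, left 0 lipid genes past the threshold and 1 under 0.05 before adjustment, the count without it, and same-numbered mice deviated from their group means with r = -0.13. Crossed pairing, chosen after seeing the data, gave 0 and 8. Before adjustment, the count of lipid genes under 0.05 was 4 with normexp, 2 with a variance trend, 2 with the authors' log2 values, and 0 to 7 with a mouse left out. The count of genes whose groups do not overlap was 11 to 30 of 35 with a mouse left out, where 63.6% to 74.6% of all named genes did not overlap. The median difference ran, with a mouse left out, from -1.28 to -0.018 for synthesis, -0.83 to 0.18 for the regulators, -0.098 to 0.52 for esterification and 0.15 to 0.50 for the droplet coat.

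The authors' log2 values moved the median difference of all named genes to -0.15 and centring on the array median to 0.10, shifts that nearly all genes share. *Cebpa* (-0.098), *Dgat1* (-0.074), *G0s2* (-0.0003) and *Plin2* (-0.094) took the other sign with the authors' log2 values. With normexp this held for *Fads1* (0.024) and *Plin2* (-0.027), with quantile normalization for *Pnpla2* (0.0077) and *Scd1* (0.0496), with the median of each array for *Fads1* (0.058), *Mgll* (0.028), *Pnpla2* (0.055) and *Scd1* (0.016), and with the mean of all probes for *Mgll* (0.045). With a mouse left out, the ranges that crossed 0 were -0.43 to 0.97 for *Acacb*, -2.08 to 1.34 for *Acsl5*, -1.83 to 0.17 for *Acss2*, -1.29 to 0.43 for *Agpat2*, -0.069 to 0.70 for *Agpat3*, -0.62 to 0.35 for *Aqp7*, -0.24 to 0.37 for *Cebpa*, -0.36 to 0.53 for *Dgat1*, -1.44 to 5.71 for *Elovl3*, -1.03 to 0.76 for *Elovl5*, -1.47 to 0.74 for *Elovl6*, -0.42 to 0.35 for *Fads1*, -1.14 to 0.55 for *Fasn*, -0.37 to 0.69 for *G0s2*, -0.20 to 0.57 for *Gpam*, -0.30 to 0.078 for *Lipe*, -0.33 to 0.20 for *Mgll*, -1.67 to 0.30 for *Mlxipl*, -0.88 to 1.01 for *Plin2*, -0.0087 to 0.35 for *Plin4*, -0.46 to 0.89 for *Plin5*, -0.25 to 0.18 for *Pnpla2* and -0.44 to 0.29 for *Scd1*. The cause of these changes was not tested, beyond that fewer mice were compared. With 2 mice per group the spread is estimated from few arrays, and *Fads2*, not well above background, has no difference.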
